A study of Mus musculus with 4 samples.

Results

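Aminoacyl-tRNA synthetases are the enzymes that join each amino acid to its tRNA. In the data described here they were 37 of 55536 annotated genes and 37 of the 22028 genes annotated as protein-coding, chosen by gene name: a letter for the amino acid followed by ars, ars1 or ars2, plus Eprs, Farsa and Farsb, each with at least 1 protein-coding transcript. The name rule uses no levels, though the members were chosen with earlier results of these data known. By their known roles, 20 make the enzymes of the cytosol and 17 those of the mitochondrion. Gars and Kars, for glycine and lysine, serve both compartments and are counted with the 20.

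The cells were bone-marrow-derived macrophages of the C57BL/6J mouse strain, taken as primary cells, and RNA of their cytosolic fraction was depleted of ribosomal RNA before sequencing. All 4 libraries, called biological replicates 1 to 4 in the labels, had the same history. The cells received 100 ng/ml lipid A, the part of bacterial lipopolysaccharide that macrophages sense, for 12 hours. They were then washed and rested for 12 hours and met 100 ng/ml lipid A again for 15 minutes. No untreated group was analysed here, so nothing below is an effect of lipid A. In the labels the 4 libraries share a donor record, have a biosample record each, and carry no sex or age, so the spread between libraries may in part be technical.

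A charged tRNA carries its amino acid to the ribosome, so every protein made depends on these enzymes. The cytosol and the mitochondrion translate separately, and most amino acids have a nuclear gene for each compartment. In mammals 8 of the cytosolic synthetase genes listed here, Dars, Eprs, Iars, Kars, Lars, Mars, Qars and Rars, make proteins of a large multisynthetase complex held together by the scaffold proteins Aimp1, Aimp2 and Eef1e1. Uncharged tRNA activates the kinase Gcn2 (Eif2ak4), which raises translation of the transcription factor Atf4, and several cytosolic synthetase genes are known Atf4 targets. Wars, the tryptophan enzyme, is also known as an interferon-induced gene in macrophages.

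Levels are given in TPM, a gene's share of the library's transcripts scaled to a fixed total, which divide by transcript length and so allow comparison between genes. The deposited TPM of a library add up over all its RNA, and protein-coding genes tested took between 252984 and 366319 TPM of each library's fixed total. Expected counts, the authors' estimated reads per gene, totalled 30660511 in the shallowest library and 48223718 in the deepest. The members' mean counts ran from 137 for Nars2 to 10375 for Aars. The 10 macrophage markers looked at all lay above 1 TPM. Of 21 markers of T cells, B cells, neutrophils, fibroblasts, endothelial and erythroid cells, 2 did: S100a8 at 3.16 to 6.14 TPM and Kdr at 1.79 to 11.3 TPM, with summed neutrophil markers at 3.30 to 6.25 TPM and summed endothelial markers at 3.60 to 13.4 TPM. The other 4 lists each summed to at most 0.37 TPM in any library, and what part such cells had in any result was not tested.

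Every cytosolic synthetase lay above the median protein-coding gene, and most mitochondrial ones lay below it. The median cytosolic member had 16.9, 15.9, 18.3 and 21.1 TPM in replicates 1 to 4, against 1.98, 1.88, 2.49 and 2.75 TPM for the median mitochondrial member. The 2 series of medians did not overlap, and the median protein-coding gene sat between them at 4.80, 4.11, 4.85 and 5.51 TPM. Single members did overlap: 5 of the 17 mitochondrial members reached 5 TPM, the lowest level of a cytosolic member, in some library. On the scale of log2(TPM + 0.1), the difference of the medians was 2.94 ± 0.10 (SD, n = 4 libraries), or 7.68-fold. Mitochondrial members made up 12.3% ± 1.06 (SD, n = 4) of the summed synthetase TPM.

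**Figure D1:**
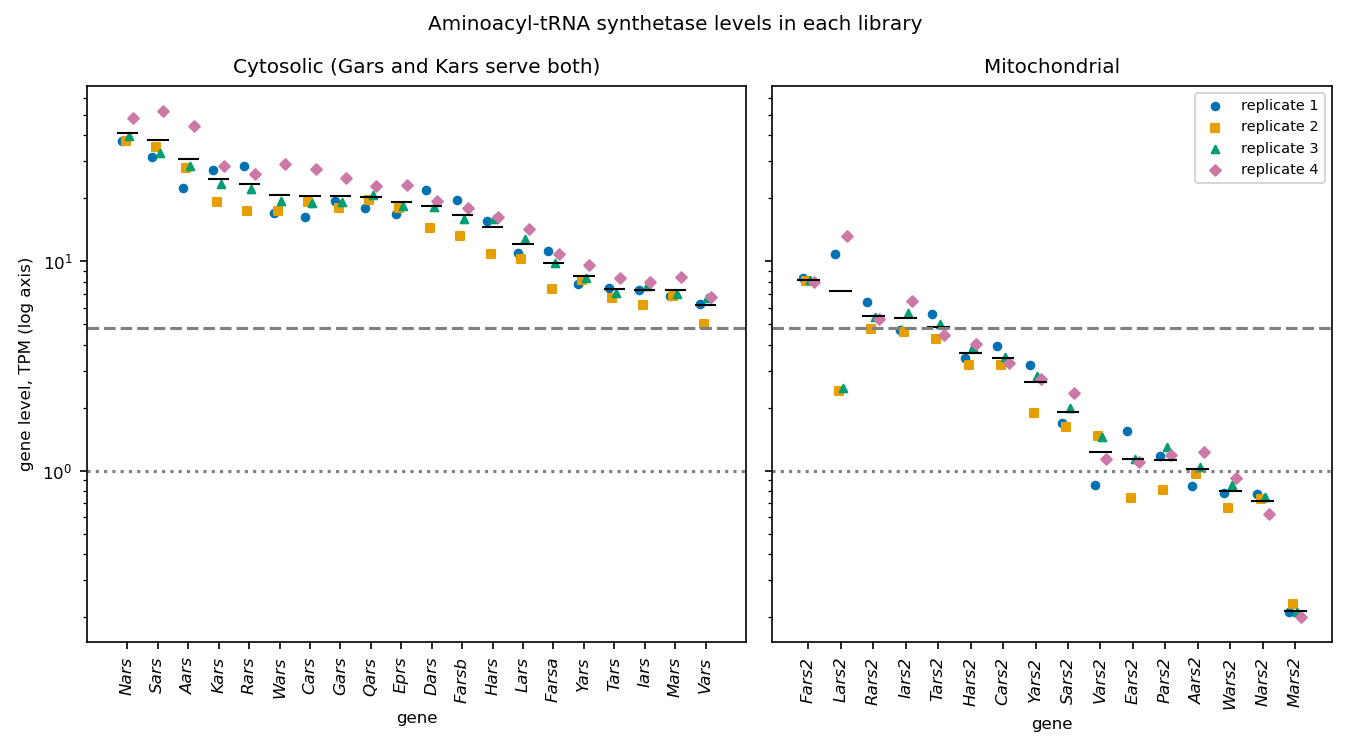
Level of each synthetase gene in TPM on a log axis, with 1 point per library and a black line at the mean of 4 libraries; the dotted line is 1 TPM and the dashed line the median protein-coding gene (mean of 4 libraries, 4.82 TPM). All 20 cytosolic genes sit above the dashed line in every library, with none under 5 TPM, and Mars2 is the lowest gene; 1 mitochondrial gene is not drawn.

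The members were tested against the median protein-coding gene of their own library with limma and Benjamini-Hochberg adjustment over all 16262 genes tested. Of the 20 cytosolic members 20 were called above it, where 36.9% of all genes and 46% of protein-coding genes were, and Vars lost this call when genes needed at least 40 counts. Of the 17 mitochondrial members 12 were called below, where 56.2% of all genes and 45.9% of protein-coding genes were, 1 (Fars2) was called above and Lars2, Rars2, Iars2 and Tars2 received no call. Against a fixed level of 1 TPM, 30 members were called above (58.2% of all genes, 71.2% of protein-coding genes) and 2 below (35.1% and 22.4%). The 5 without a call there were Vars2, Ears2, Pars2, Aars2 and Wars2, each with a mean within 0.802 to 1.22 TPM.

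That fixed level moves with how TPM is scaled, so its calls are relative to the whole RNA of the library. When TPM were rescaled to the same total over protein-coding genes, 36 members lay above 1 and 0 below, and the calls over all genes went from 9457 above and 5712 below to 11024 and 3453. With the deposited TPM of the second quantification they went to 7324 above and 12231 below, with 26 members above and 8 below. Centring on the median of all genes in place of protein-coding genes turned 6000 calls above and 9137 below into 7608 and 7609, with 27 members above and 8 below, and put Cars2 and Hars2 above the centre.

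Nars, the asparagine enzyme on chromosome 18, had the highest mean of the family: 37.4, 37.5, 39.8 and 48.5 TPM in replicates 1 to 4. Sars, the serine enzyme (chr3:108424865-108445209, minus strand, mm10), had 31.5, 35.0, 33.0 and 52.1 TPM. Aars, the alanine enzyme (chr8:111033144-111057664, plus strand), had 22.3, 27.8, 28.6 and 44.2 TPM. All 3 were highest in replicate 4, and their means lay 8.31-fold, 7.61-fold and 6.10-fold above the median protein-coding gene, with adjusted p values of 5.0e-08, 2.2e-07 and 8.7e-07 in limma. The ranges of these 3 genes overlapped, but within each of the 4 libraries Aars was below both Nars and Sars, while Nars and Sars changed places in replicate 4.

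Kars, the lysine enzyme (chr8:111993443-112011323, minus strand), came next with 27.4, 19.3, 23.4 and 28.6 TPM. Rars, the arginine enzyme of the complex, had 28.5, 17.3, 22.2 and 26.0 TPM. Wars had 17.1, 17.4, 19.4 and 29.1 TPM, and Cars, the cysteine enzyme, 16.3, 19.1, 19.0 and 27.6 TPM. Kars and Rars were lowest in replicate 2, whereas Wars and Cars were lowest in replicate 1. Gars, the glycine enzyme, had 19.5, 18.0, 19.1 and 25.1 TPM, close to the other members of this tier.

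Eprs is a single gene for the joined glutamate and proline enzymes. It had 16.8, 18.0, 18.4 and 23.2 TPM. The phenylalanine enzyme of the cytosol is built from an alpha subunit, Farsa, and a beta subunit, Farsb. Farsa had 11.2, 7.40, 9.82 and 10.9 TPM, and Farsb 19.7, 13.2, 15.8 and 18.0 TPM, so the beta subunit's mRNA was the higher in every library and both were lowest in replicate 2. The other cytosolic members lay between 6.16 TPM (Vars, the valine enzyme) and 20.3 TPM (Qars, the glutamine enzyme) on average. Vars was nearest to the median protein-coding gene, at 0.35 ± 0.07 above it on the log2 scale (SE, adjusted p = 0.0027 in limma), and at 0.06 with at least 40 counts.

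The 8 genes of the multisynthetase complex and the 12 other cytosolic genes had nearly the same level. Their medians differed by 0.05 ± 0.04 on the log2 scale (SD, n = 4), with 0.06, 0.06, 0.07 and -0.01 in replicates 1 to 4, and by -0.20 on protein-coding transcripts alone. The scaffold genes lay below the median complex gene (18.2 TPM on average), though the mean of Aimp1 was above those of Lars, Iars and Mars. Aimp1 had 12.8 ± 1.75 TPM, Eef1e1 3.44 ± 0.92 TPM and Aimp2 2.80 ± 0.34 TPM (SD, n = 4). All 3 were called above 1 TPM, 1 above the median protein-coding gene and 2 below it.

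At the other end of the family stood Mars2, the mitochondrial methionine enzyme (chr1:55237177-55248470, plus strand), with 0.21, 0.23, 0.21 and 0.20 TPM. It has 1 annotated transcript, of 11294 bases, so this low level per length rests on a mean of 152 expected counts. Nars2 had 0.77, 0.73, 0.75 and 0.62 TPM, Wars2 0.78, 0.66, 0.85 and 0.92 TPM, and Aars2 0.84, 0.96, 1.04 and 1.23 TPM. Pars2, the mitochondrial proline enzyme, had 1.18, 0.81, 1.29 and 1.19 TPM. Mars2 did not overlap any other member, while the next 4 overlapped their neighbours. Mars2 and Nars2 lay 15.7-fold and 6.00-fold below the median protein-coding gene (adjusted p = 4.0e-07 and 2.3e-06 in limma) and were the 2 members called below 1 TPM. The Nars2 call against 1 TPM was lost when replicate 2, 3 or 4 was left out, and its level was above 1 after rescaling to protein-coding genes.

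Ordered by mean TPM, 32 of the 36 neighbouring members overlapped in their range over the 4 libraries and 4 did not. Compared within each library, 9 of the 36 neighbours kept the same order in all 4 libraries, 5 of them with overlapping ranges, among them Sars over Aars. The other 27 changed places in at least 1 library.

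Comparing the genes for the same amino acid within a library removes what differs between libraries in depth and scaling. For 14 amino acids there is 1 gene for each compartment, and 4 further comparisons set Eprs beside Ears2 and Pars2, and Farsa and Farsb beside Fars2. The cytosolic gene was higher in all 4 libraries in 17 of these 18 comparisons. The exception was Farsa over Fars2, at 1.35, 0.92, 1.21 and 1.36-fold in replicates 1 to 4. Farsa was the higher in every library in the second quantification (1.53, 1.18, 1.57 and 1.61-fold) and on protein-coding transcripts alone (2.35, 1.98, 2.54 and 1.87-fold). An exact sign-flip permutation test over 4 libraries cannot go below 0.125 (two-sided), so these are descriptions.

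**Figure D2:**
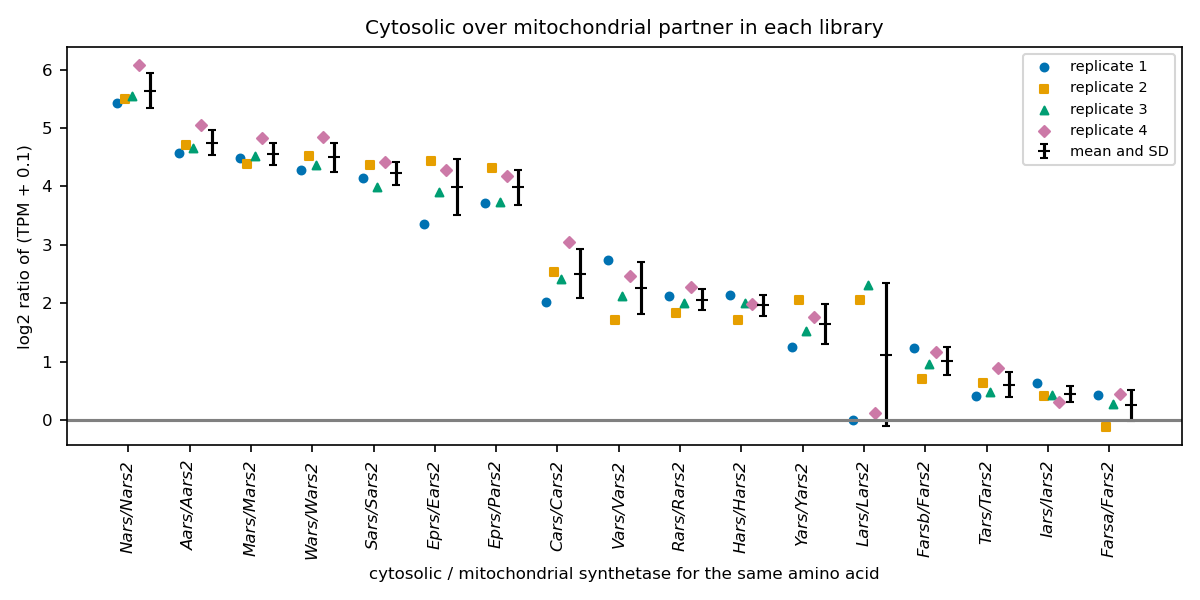
log2 ratio of (TPM + 0.1) of the cytosolic over the mitochondrial gene for the same amino acid, 1 point per library, with mean and SD at the right of each set; the line at 0 marks equal levels, and 17 of the 18 comparisons are drawn. Nars over Nars2 stands at the top and Farsa over Fars2 at the bottom, and Lars over Lars2 has the widest spread.

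The size of the gap differed widely between amino acids: 7 ratios were over 10-fold, 8 between 2-fold and 10-fold and 3 under 2-fold. For asparagine, Nars was 48.5, 51.4, 53.1 and 78.3 times Nars2. For alanine, Aars was 26.5, 28.9, 27.5 and 35.9 times Aars2, and for methionine Mars was 32.6, 29.7, 33.4 and 42.0 times Mars2. In all 3 the ratio was highest in replicate 4.

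Tryptophan and serine also had wide gaps, with mean ratios of 25.7 ± 4.43 for Wars over Wars2 and 19.8 ± 2.63 for Sars over Sars2 (SD, n = 4). At the narrow end, Iars was 1.57, 1.34, 1.35 and 1.24 times Iars2, the isoleucine genes. Tars was 1.33, 1.57, 1.41 and 1.88 times Tars2, the threonine genes. Neither range reached 2-fold, and neither range overlapped that of any of the 3 widest gaps. On the log2 scale the means ran from 0.26 ± 0.26 for Farsa over Fars2 to 5.64 ± 0.30 for Nars over Nars2 (SD, n = 4).

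The leucine genes stood apart because Lars2 split the libraries. Lars2 (chr9:123366927-123462666, plus strand) had 10.9, 2.41, 2.49 and 13.2 TPM in replicates 1 to 4. Replicates 1 and 4 were high, replicates 2 and 3 were low, and no library lay between. Lars, its cytosolic partner, had 11.0, 10.3, 12.8 and 14.3 TPM, so the ratio was 1.01, 4.28, 5.12 and 1.09. Its biological coefficient of variation (BCV), the relative spread between replicates beyond counting noise in edgeR, was 0.528, the highest of the 37.

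The excess in replicates 1 and 4 was assigned to transcripts that are not annotated as protein-coding. Lars2-201, the coding transcript of 3894 bases, had 2.96, 2.07, 2.42 and 4.20 TPM. Lars2-209, of 3756 bases and annotated to nonsense-mediated decay (the pathway that degrades mRNAs with an early stop), had 7.92, 0.00, 0.00 and 8.81 TPM. The mean of replicates 1 and 4 over that of 2 and 3 was 4.91 for the gene and 1.59 for its protein-coding transcripts.

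The second quantification gave the gene 63.9, 2.32, 1.93 and 29.4 TPM, again high in replicates 1 and 4. There Lars2-209 had 20.4, 0.04, 0.00 and 19.7 TPM and Lars2-205, a retained-intron transcript of 889 bases, had 41.3, 0.75, 0.79 and 8.20 TPM. The first quantification assigned nothing to Lars2-205. The Lars over Lars2 ratio, 1.12 ± 1.23 on the log2 scale in the first quantification, turned to -1.20 in the second, and no other ratio of the 18 changed its direction under any alternative.

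**Figure D3:**
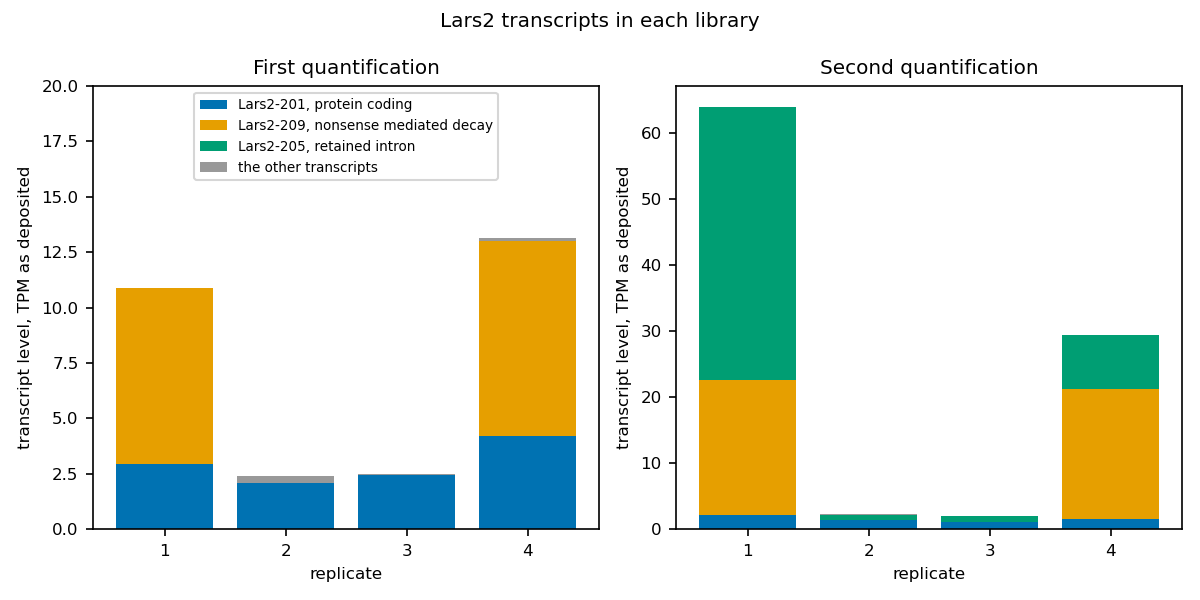
Stacked TPM of Lars2 transcripts in each of the 4 replicates, in the first (left) and the second (right) quantification; the 2 vertical axes have different scales and both start at 0. Coding Lars2-201 is present in all 4 replicates, whereas Lars2-209 in both and Lars2-205 in the second make up most of replicates 1 and 4.

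Sequence of ribosomal RNA, which depletion should reduce, also differed between these libraries. CT010467.1, annotated as rRNA, had 964, 196, 25.7 and 749 TPM in replicates 1 to 4, highest where Lars2 was high. The mitochondrial mt-Rnr1 had 7.83, 2.82, 3.09 and 27.1 TPM and mt-Rnr2 had 3.74, 1.23, 1.49 and 16.8 TPM, with replicates 1 and 4 again the higher. Gm42418 (17.4, 204, 47.0 and 180 TPM) and Gm26917 (15.3, 843, 70.0 and 304 TPM), which overlap or adjoin that rRNA gene, did not follow this order, and AY036118 was at 0.00 TPM in every library. The 9 annotated Lars2 transcripts shared 0 words of 20 bases with these 6 genes on either strand. The part of ribosomal RNA sequence in the Lars2 values was not tested.

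Between the quantifications the family otherwise differed little. Each was rescaled to protein-coding genes and compared within a library by limma treat for a difference of more than 1 on the log2 scale, over 14119 genes. No member was called, where 4.27% of genes were (0.956% higher in the first quantification, 3.31% in the second). Of 36 members tested 1 had an unadjusted p under 0.05 in limma treat, as had 1416 of the 14119 genes. A difference past that size was seen for 1 of the 36 members, Lars2, beside 2638 of the 14119 genes. It was -2.28 ± 0.56 for Lars2 (SE, adjusted p = 0.493 in limma treat), and the other members lay between -0.55 and 0.33. Mars2 was too low to enter.

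The median BCV of the synthetases was 0.149, against 0.170 for protein-coding genes and 0.206 for all genes tested, and 24 and 30 of 37 members were under these medians. Among genes with at least 40 counts the medians were 0.149, 0.159 and 0.172, and the differences were not tested. Lars, Gars and Yars had the smallest, at 0.115, 0.116 and 0.116, and Yars, the tyrosine enzyme, had 7.75, 8.15, 8.33 and 9.63 TPM. After Lars2 the largest belonged to Nars2 (0.283) and Ears2 (0.254), which are among the members with fewest counts. Ears2, the mitochondrial glutamate enzyme, had 1.55, 0.74, 1.13 and 1.10 TPM, high in replicate 1 and low in replicate 2. Lars had 2535 expected counts on average and Nars2 had 137, and the part of depth in this contrast was not tested.

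Small shifts between libraries remained, and which library was highest depended in part on the scaling. By TPM, 22 of 37 members and 16 of 20 cytosolic ones were highest in replicate 4. In that library protein-coding genes tested took the most TPM (366319), and no share of all genes is given for this count. It falls to 10 (27.0%) and 6 (30%) on CPM, beside 22.3% of all genes. CPM are counts scaled to the library total, after edgeR's TMM correction for library make-up. For 14 members the highest library was the same by TPM, by TPM rescaled to protein-coding genes and by CPM. Among them Aars, Sars, Wars and Lars2 were highest in replicate 4, and Dars, Farsa, Farsb, Rars, Ears2, Rars2 and Tars2 in replicate 1.

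On log2 CPM, Aars deviated from its mean by -0.42, 0.09, -0.01 and 0.34 in replicates 1 to 4. Cars deviated by -0.33, 0.11, -0.06 and 0.29 and Wars by -0.25, -0.03, -0.03 and 0.31. Rars went the other way, with 0.29, -0.23, -0.03 and -0.03, as did Dars with 0.24, -0.14, 0.02 and -0.12, and Farsb with 0.24, -0.13, -0.03 and -0.09. Replicate 1 was thus the lowest library for Aars, Cars and Wars and the highest for Rars, Dars and Farsb. Of the 37 members 17 (45.9%) were lowest in replicate 1, beside 38.6% of all genes.

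**Figure D4:**
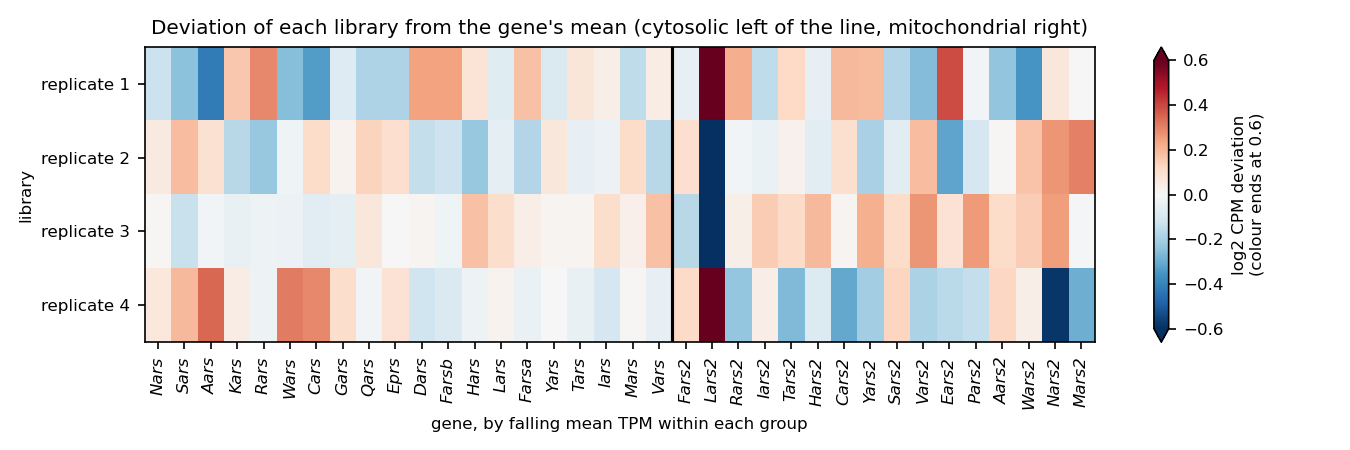
Deviation of each library (rows) from the gene's own mean on the log2 CPM scale, with red higher and blue lower and the colour scale ending at 0.6 in each direction. Lars2 passes both ends of the scale; replicate 1 is lowest for Aars, Cars and Wars and highest for Rars, Dars and Farsb.

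The promoters of some cytosolic members hold a sequence that Atf4 binds with C/EBP partners, whose core was searched as TGATGNAA on both strands. RefSeq promoters (250 bases before to 50 after the start, build GRCm38.p6) were at hand for 27 of the 37 members. The core occurred in 5 of 13 cytosolic and 0 of 14 mitochondrial members, and in 3.97% of all 32851 promoters. The site nearest the start is shown for each in a window of 30 bases on the gene's own strand (minus for Tars, plus for the others), with the core in capitals, because it is what these 5 promoters share. In all but Yars the core lies on the opposite strand. Its first base lies 30 bases before the start in Gars, 15 before it in Tars, and 9, 7 and 3 after it in Aars, Iars and Yars.
Aars, chr8:111033840-111033869: agcgggtcactTTTCATCAgagcgctctga
Gars, chr6:55037960-55037989: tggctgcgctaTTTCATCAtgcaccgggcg
Iars, chr13:49682126-49682155: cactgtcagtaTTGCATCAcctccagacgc
Tars, chr15:11399655-11399684: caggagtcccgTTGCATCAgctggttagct
Yars, chr4:129189895-129189924: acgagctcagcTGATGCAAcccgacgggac

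In the pathway that leads to this motif, Atf4 had 72.8, 95.1, 69.3 and 132 TPM in replicates 1 to 4 and Eif2ak4 had 2.00, 2.29, 2.77 and 2.51 TPM. By TPM, Atf4 and all 5 genes with the core were highest in replicate 4, as were 16 of all 20 cytosolic members. After rescaling to protein-coding genes Atf4, Gars, Tars and Yars were highest in replicate 2, Iars in replicate 3 and Aars in replicate 4. Of the searched cytosolic members without the core, Eprs, Mars and Qars were also highest in replicate 2, and Dars, Farsa, Farsb, Kars and Sars were not. On log2 CPM, Atf4, Aars and Gars were highest in replicate 4, Iars in replicate 3, Tars in replicate 1 and Yars in replicate 2. On that scale Aars, Gars and Yars were lowest in replicate 1, Iars in replicate 4 and Tars in replicate 2. Cars, Wars, Sars, Nars and the mitochondrial Aars2 and Sars2 were also lowest in replicate 1, each highest in replicate 4. Atf4 was lowest in replicate 3 by TPM and in replicate 1 after rescaling. Sars, Aars2 and Sars2 were searched and hold no copy of these letters in their windows, while Cars, Wars and Nars had no promoter at hand. A match in a promoter is a description, and whether Atf4 binds there was not tested.

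Other motifs were counted in the same windows. CCAAT occurred in 13 of 27 members (37.4% of all promoters), CACGTG in 5 (7.15%), TGACGT in 4 (7.51%) and CCGGAAGT in 3 (3.89%). GCCATNTTG occurred in 3, the mitochondrial Lars2, Wars2 and Yars2 (2.51%), and the interferon-stimulated response element core in 1, Qars (3.44%). The share of all promoters is given in brackets, and the longer forms GATTGG, TGACGTCA and TGATGNAAT occurred in 7, 0 and 3 members (16.1%, 1.79% and 0.965%).

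Which transcripts make up a gene's level matters for reading it as mRNA for the enzyme. By mean share over the 4 libraries a protein-coding transcript led in 35 of 37 members (94.6%, beside 93.5% of protein-coding genes tested). Lars2 is among the 35, but coding Lars2-201 (60.6% ± 36.2, SD, n = 4) led in only 2 libraries. In replicates 1 and 4, nonsense-mediated decay transcripts held 72.7% and 66.9% of Lars2, and Lars2-205 led the second quantification at 41.5%. The median member had 94.8% of its TPM on protein-coding transcripts, beside 97.5% for protein-coding genes tested. In 13 members the leading transcript held at least 90%. In 6 it held under 60%.

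**Figure D5:**
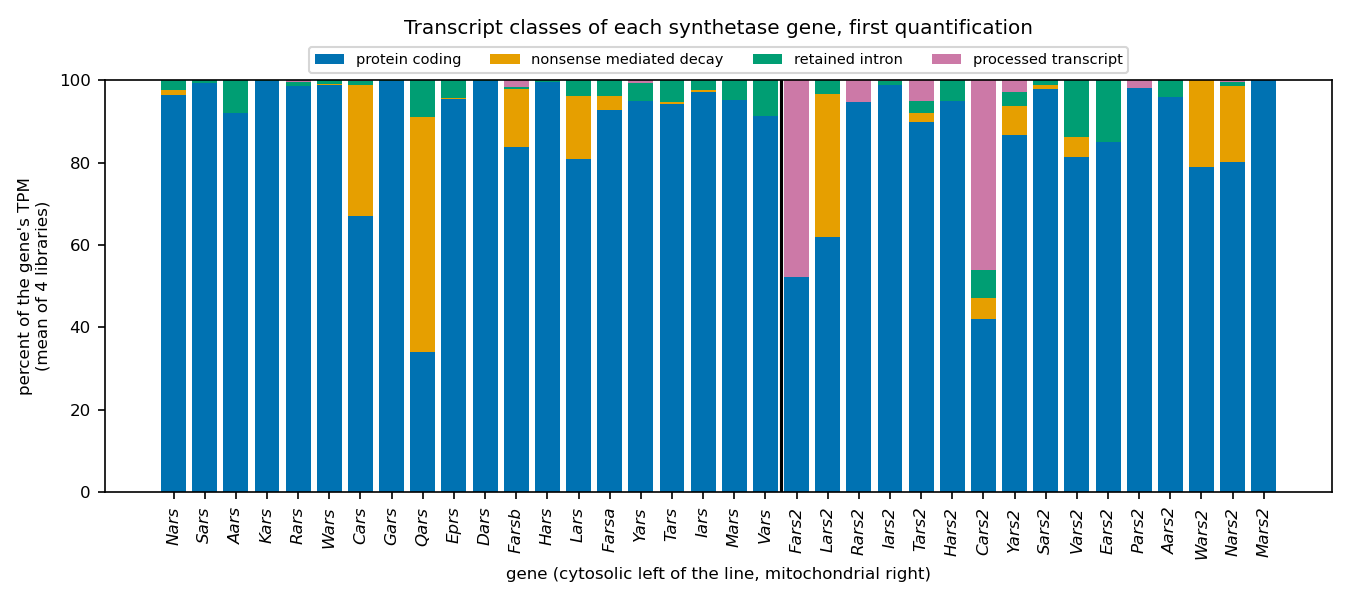
Percent of each gene's TPM on protein-coding, nonsense-mediated decay, retained-intron and processed transcripts, as the mean of 4 libraries in the first quantification. Of the genes drawn, Qars, Cars2 and Fars2 have less than 60% on protein-coding transcripts, with Lars2 next.

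Qars, the glutamine enzyme, was led by Qars-231, annotated to nonsense-mediated decay, with 7.33, 7.90, 9.38 and 11.3 TPM, or 43.9% ± 4.33 (SD, n = 4) of the gene. Its best coding transcript, Qars-203, had 4.87, 4.55, 4.68 and 3.88 TPM, lower in every library. Qars as a gene had 18.0, 19.7, 20.7 and 22.9 TPM, of which 6.85 TPM on average lay on protein-coding transcripts. The second quantification also placed Qars-231 in front, at 48.8%. Cars had 31.7% ± 1.60 (SD, n = 4) on Cars-211, a transcript of 558 bases with the same annotation, beside 60.1% ± 2.06 on coding Cars-202.

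Fars2, the mitochondrial phenylalanine enzyme, had 8.28, 8.05, 8.10 and 7.98 TPM, nearly level over the libraries as deposited. Rescaled to protein-coding genes, Fars2 had 26.1, 31.8, 27.0 and 21.8 TPM, and its BCV was 0.153. The leading transcript of Fars2 was Fars2-206, a processed transcript of 506 bases, with 35.3% ± 6.38 (SD, n = 4). As deposited, its protein-coding transcripts summed to 4.23 TPM on average. On those alone Fars2 lay at the median protein-coding gene (0.01 on the log2 scale) and lost its call above it. In the same count, with protein-coding transcripts alone, Lars2 was called below the median (-0.51) and Rars2 and Iars2 above it, while all 20 cytosolic members stayed above, beside 46.3% of 12636 genes above and 46.4% below.

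Cars2, the mitochondrial cysteine enzyme, was also spread over many forms. It had 3.93, 3.21, 3.47 and 3.26 TPM, with 40.2% ± 9.49 (SD, n = 4) on coding Cars2-201. Nars and Hars2 were led by coding transcripts at 57.6% ± 3.07 and 58.5% ± 6.29, but further coding forms brought both past 90% protein-coding. Hars2 itself had 3.45, 3.21, 3.90 and 4.01 TPM. Iars-206 led Iars at 96.7% in the first quantification and Iars-201 at 93.1% in the second, so the choice between these forms rests on the quantification.

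Kars makes a cytosolic and a mitochondrial enzyme from alternatively spliced transcripts. Kars-201 had 23.4, 16.0, 20.3 and 24.2 TPM and Kars-202 had 3.35, 2.28, 1.92 and 3.55 TPM, which are 84.9% ± 1.48 and 11.2% ± 1.99 (SD, n = 4) of the gene. Kars-202 was the lower in every library, and the second quantification gave it 12.3%. The transcripts share their last 1726 coding bases and differ in how the coding sequence begins, which is shown for each from the GENCODE M21 transcripts, on the minus strand of chromosome 8, with the start codon in capitals. Kars-201 begins with 59 bases of its own (chr8:112011210-112011268) and Kars-202 with 146 from an extra exon (chr8:112008207-112008352).
Kars-201: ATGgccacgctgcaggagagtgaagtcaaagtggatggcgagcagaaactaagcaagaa
Kars-202: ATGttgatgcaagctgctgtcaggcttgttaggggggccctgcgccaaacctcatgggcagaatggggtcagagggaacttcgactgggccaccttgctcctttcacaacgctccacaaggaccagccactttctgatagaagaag

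Gars, which also serves both compartments, had 99.7% ± 0.37 (SD, n = 4) of its TPM on Gars-201, so its forms are not separated at the transcript level.

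Some members overlap other genes, and whether counting used the strand is not given in the sources used here, so reads there cannot be told apart with certainty. Hars and Hars2 lie head to head and share 198 bases. Aars shares 1326 bases with Exosc6, which lies on the same strand, so strand could not separate them. Exosc6 had 0 TPM, and what part its reads had in the Aars level was not tested. Cars2 shares 984 bases with Naxd (12.3 ± 0.92 TPM), Iars2 shares 2034 bases with Rab3gap2 (15.3 ± 3.23 TPM) and Wars shares 544 bases with Wdr25 (2.27 ± 0.63 TPM; SD, n = 4 for each). Mars shares 68 bases with Ddit3 (110 ± 44.9 TPM), an Atf4 target that was the more abundant.

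Of 19 genes around the synthetases in tRNA charging and processing, 17 were called above 1 TPM, and 5 lay above and 12 below the median protein-coding gene, to be read beside the shares of all genes given above. Of 6 synthetase-like, proofreading and deacylation genes 4 were called above 1 TPM, 2 above and 3 below the median protein-coding gene, led by Prorsd1 (9.13 ± 0.55 TPM), Lrrc47 (8.20 ± 0.95 TPM) and the alanyl-tRNA editing protein gene Aarsd1 (4.39 ± 0.64 TPM). The 3 genes of the mitochondrial amidotransferase, which makes glutaminyl-tRNA where no mitochondrial Qars exists, were all above 1 TPM, with 1 above and 2 below the median gene: Gatc at 7.45 ± 0.69 TPM, Gatb at 2.78 ± 0.32 TPM and Qrsl1 at 2.44 ± 0.13 TPM. Pstk, Mtfmt and Sepsecs, for selenocysteine and initiator tRNA, had 4.35 ± 0.50, 1.89 ± 0.16 and 1.83 ± 0.25 TPM, and 3 of 3 were above 1 TPM while 0 were above the median gene (SD, n = 4 throughout).

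The tRNA end processing and recycling genes were headed by the CCA-adding enzyme Trnt1 (11.5 ± 2.25 TPM) and the tRNA exporter Xpot (8.33 ± 1.53 TPM), followed by Elac2 (3.71 ± 0.49 TPM), with 7 of 7 above 1 TPM, 2 above and 5 below the median gene. Downstream of charging, the cytosolic elongation factors other than Eef1d (31.1 ± 4.25 TPM) and Eef1a2 stood above every synthetase. Eef1a1, which carries charged tRNA to the ribosome, had 974, 873, 881 and 1023 TPM, Eef2 had 220 ± 19.7 TPM and Eef1b2 76.1 ± 8.47 TPM, and 5 of 5 tested were above both levels. Eef1a2 had too few counts to test. Of 4 mitochondrial elongation factors 3 were above the median gene and 1 below, with Tufm, the counterpart of Eef1a1, at 13.7 ± 1.42 TPM, Gfm1 at 8.96 ± 1.83 TPM and Gfm2 at 6.38 ± 0.89 TPM (SD, n = 4).

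In the amino acid starvation list, headed by Gcn2 and Atf4, 18 of 21 genes were called above 1 TPM and 2 below, and 9 above and 7 below the median protein-coding gene. The highest were the amino acid transporter subunit gene Slc3a2 (122, 122, 136 and 179 TPM), Ddit3 (67.0, 122, 82.1 and 167 TPM) and Atf4. Ddit4 (0.51 ± 0.08 TPM) and Slc7a11, the cystine transporter (0.49 ± 0.17 TPM; SD, n = 4), were the 2 below 1 TPM. By TPM, 14 of the 21 genes were highest in replicate 4, and 12 (57.1%) were highest in replicate 4 and next in replicate 2, beside 2 of 37 synthetases (5.41%) and 7.25% of all genes tested. On log2 CPM 8 genes of the list (38.1%) had that order, beside 7 synthetases (18.9%: Aars, Cars, Fars2, Gars, Nars, Sars and Wars) and 7.57% of all genes. After rescaling to protein-coding genes 2 of the list (9.52%), 3 synthetases (8.11%) and 6.78% of all genes had it, and 12 of the 21 were highest in replicate 2, so the order of replicates 2 and 4 rests on the scaling.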

How the data were processed

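Per the file headers, the authors deposited for each library a gene table and a transcript table with expected counts and TPM (the first quantification), and a second transcript table with estimated counts and TPM. Per the labels and the deposited notes, reads were assigned on mm10 (annotation M21), in the first quantification through a transcriptome alignment and in the second directly. Which tools did so is not given in the sources used.

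For 1 member, which stays in the counts, values of its own are not reported here. The members and lists were chosen with earlier results of these data known. Genes with at least 10 summed expected counts were tested with limma 3.58.1 on log2(TPM + 0.1), at an adjusted p of 0.05. BCV came from edgeR 4.0.16 on expected counts rounded to whole numbers; DESeq2 1.42.0 gave alternatives. The fits were tested on simulated data. Every member may be named; values per library were given for the 8 highest and 5 lowest by mean TPM, the 3 largest and 3 smallest by BCV, those led by a non-coding transcript or by one under 60%, and Wars, Lars2, Gars, Kars, Eprs, Farsa and Farsb, and in the other lists for the 3 highest, any below 1 TPM and all ribosomal RNA genes; Eif2ak4 was added after its values were seen. Alternatives were the second quantification, posterior mean TPM, other pseudocounts, filters and scalings, and leaving out each library; a count on protein-coding transcripts alone was chosen after seeing the data. The members had at least 137 expected counts on average, and the fewest counts give the least precise levels.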

Additional observations from a re-analysis of the deposited data

Results flagged for a closer look

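In a group of 4 libraries a value was looked at again where 1 library lay far from the other 3. Of 96 genes and contrasts looked at 5 met this, and chance gives about 1 in 20. The gap to the nearest library, as a share of the whole range, was 0.876 for Hars (15.6, 10.8, 16.0 and 16.2 TPM in replicates 1 to 4), the histidine enzyme, which was low in replicate 2. It was 0.880 for Mars (6.85, 6.82, 7.01 and 8.40 TPM), high in replicate 4. It was 0.839 for Tarsl2 (0.85, 0.84, 1.11 and 0.80 TPM), a threonyl-tRNA synthetase-like gene, high in replicate 3. It was 0.838 for mt-Rnr2, high in replicate 4, and 0.861 for the multisynthetase complex against the other cytosolic genes, where replicate 4 was the lower.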

How the results depend on the processing

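No paired analysis was possible because all 4 libraries belong to 1 group, so no replicate number is shared between groups; ratios between genes and between quantifications were taken within a library. Of the values for single members, pairs and leading transcripts under alternatives, 1477 kept their side or stayed within 1 SD, 27 came to pass a threshold, 11 no longer passed it and 85 moved by more. The 28 that changed direction are all printed here, and their cause was not tested unless stated.

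The cytosolic minus mitochondrial difference of medians (2.94) was 2.76 in the second quantification, 2.79 with posterior mean TPM, 2.54 with a pseudocount of 1, 2.81 without Gars and Kars, 3.04 without Lars2 and 3.34 on protein-coding transcripts alone (chosen after seeing the data); leaving out a library gave 2.91 to 2.98. For the complex against other cytosolic genes (0.05) these were 0.089 (second quantification), 0.12 (without Gars and Kars) and -0.20 (protein-coding transcripts alone), with 0.04 to 0.07 when a library was left out. Lars over Lars2 was -1.20 in the second quantification.

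Against 1 TPM, genes below numbered 12231 in the second quantification, 44918 with no filter (more genes tested), 2800 with at least 40 counts (fewer tested) and 3453 rescaled, and 4410 to 5420 without a library. Members below numbered 8 (second quantification), 1 (posterior mean TPM) and 0 (either quantification rescaled), and 1 to 2 without a library. In the second quantification log2 levels against 1 TPM were -1.26 for Aars2, -1.18 for Ears2, -1.20 for Pars2, -0.53 for Sars2, -0.85 for Vars2 and -0.16 for Yars2. Rescaled, Nars2 was at 1.15 and Wars2 at 1.30, and at 1.70 and 1.49 in the rescaled second quantification.

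Against the median protein-coding gene, testing with no filter lowers that median because unexpressed genes enter it: 12045 genes lay above and 41985 below, with 36 members above and 0 below. Members below in the main count then stood above, among them those at 2.11 for Aars2, 3.79 for Cars2, 2.22 for Ears2, 3.86 for Hars2, 0.28 for Mars2, 1.66 for Nars2, 2.22 for Pars2, 2.95 for Sars2, 2.33 for Vars2, 1.80 for Wars2 and 3.40 for Yars2. Cars2 and Hars2 were at 0.10 and 0.19 in the second quantification and 0.35 and 0.42 against the median of all genes. Tars2 was at -0.28 with at least 40 counts and Lars2 at -0.51 on protein-coding transcripts alone, where 5859 genes were below. Vars, at 0.06, lost its call with at least 40 counts.

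Between quantifications, genes higher in the first numbered 442 with TPM as deposited, 88 with a pseudocount of 1, 2823 with posterior mean TPM and 70 to 91 without a library. Genes higher in the second numbered 229 (TPM as deposited), 164 (pseudocount 1), 254 (at least 5 TPM) and 201 to 518 without a library. With TPM as deposited, whose median difference was 1.40, 1 member (Fars2) was called. The median BCV was 0.109 from DESeq2 gene-wise dispersions, 0.178 in the second quantification and 0.131 to 0.167 without a library.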
